A study of Mus musculus with 12 samples.

Results

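The genes described here are those encoded by the mouse mitochondrial genome, taken from the count table as all symbols beginning with mt-. They are 37 of the 55471 gene IDs in the table, namely 13 protein genes, 2 ribosomal RNA (rRNA) genes and 22 transfer RNA (tRNA) genes. All 13 protein genes and both rRNAs had reads in all 12 libraries, and 8 of the 22 tRNAs did. The protein genes divided into 7 with at least 6541 reads in each library and 6 neighbouring genes with at most 883, and no mitochondrially encoded gene differed between the stimulation groups past the threshold of the main test.

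The mitochondrial genome is a small circle that is transcribed from both strands into long precursor RNAs. The tRNAs lie between most of the rRNA and protein genes, and cutting them out of the precursor releases the messenger RNAs. Most of these then receive a poly(A) tail. The proteins are core subunits of the respiratory chain complexes I, III and IV and of the ATP synthase (complex V), which neurons rely on to restore ion gradients after synaptic activity. Pieces of mitochondrial DNA have also been copied into the nuclear genome during evolution, where they persist as pseudogenes.

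The libraries came from ventral CA1 of the hippocampus (vCA1) in acute slices of male C57BL/6J mice, wild-type and 5 to 7 weeks old, and the groups were compared to describe gene expression 30 min after the induction of late long-term potentiation. Control slices had basal stimulation. STET slices had strong tetanization, 3 trains of 100 pulses at 100 Hz, and STET_S100 and STET_S200 slices had the same tetanization, with the basolateral amygdala stimulated as well, at 100 Hz in the former and 200 Hz in the latter. The label of STET_S200 also gives 100 Hz for the pulses in brackets, so the rate is stated in conflicting ways. There were 3 libraries in each group. Each was made by poly(A) selection from 6 pooled slices, from which 1 mm2 around the electrodes was dissected after freezing. A mouse gave 4 slices, 1 for each group, so mice are common to the groups. Whether libraries with equal numbers share their mice is not stated. P-values measure the spread between these pools.

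Each library held 36.3 to 52.8 M counts. Markers of pyramidal neurons summed to 6344 to 7110 CPM, which are counts scaled by the adjusted library size, and those of CA1 to 464 to 603 CPM. The 14 markers of the choroid plexus, a tissue next to the hippocampus, summed to 393 to 1977 CPM in Control and 462 to 3414 in STET. They spanned 121 to 4247 CPM in STET_S100 and 91.3 to 167 in STET_S200. Fabp4, known from adipose tissue and the endothelium, was above 1 CPM in 5 libraries (Control 3, STET 3, STET_S100 1, STET_S200 2 and STET_S200 3) and below it in the other 7.

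The sequences shown first are those that protein genes share with the nuclear genome, since 5 of the 6 low genes have a near-identical copy there. In the GENCODE M21 annotation of build GRCm38, 7 pseudogenes lie side by side on the minus strand of chromosome 1 (chr1:24611535-24616197), in the same order as the mitochondrial genes they copy. They run from Gm29216, a copy of the last 31.3% of mt-Co1, to Gm28439, a copy of the first 63.6% of mt-Nd4. Between these ends lie nearly full copies of mt-Co2 (Gm28661, 100% identical over 681 bases), mt-Atp6 (Gm10925, 100% over 678), mt-Co3 (Gm28437, 100% over 783), mt-Nd3 (Gm28438, 99.7% over 345) and mt-Nd4l (Gm10222, 100% over 294). The first 60 bases of mt-Atp6, subunit a of the ATP synthase (chrM:7927-7986, plus strand), and of its copy (chr1:24614592-24614651, minus strand) are the same, with the first codon in capitals.
mt-Atp6: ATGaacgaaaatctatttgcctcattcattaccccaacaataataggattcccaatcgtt
Gm10925: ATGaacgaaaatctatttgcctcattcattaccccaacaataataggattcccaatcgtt
In mt-Nd3, a complex I subunit, the copy differed by T3C, counted from the first base of the gene and in capitals in the first 23 bases (chrM:9459-9481, plus strand, and chr1:24613097-24613119, minus strand).
mt-Nd3: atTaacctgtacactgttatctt
Gm28438: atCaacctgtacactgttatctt
The low gene without an annotated near-identical copy is mt-Atp8, another ATP synthase subunit (chrM:7766-7969, plus strand), for which the best other transcript, Gm28925, was 81.4% identical. Its last 43 bases, in capitals, are also the first bases of mt-Atp6, and between Gm10925 and Gm28661 on chromosome 1 lie 233 bases with no annotated gene, the sequence of which was not read here.
mt-Atp8: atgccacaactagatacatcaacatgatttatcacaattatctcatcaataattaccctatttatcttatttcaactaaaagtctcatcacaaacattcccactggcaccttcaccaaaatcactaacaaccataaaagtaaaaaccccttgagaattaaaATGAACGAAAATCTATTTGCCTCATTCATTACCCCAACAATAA

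Levels of the protein genes were compared as CPM per kb of gene length. The 6 consecutive genes mt-Co2, mt-Atp8, mt-Atp6, mt-Co3, mt-Nd3 and mt-Nd4l averaged 8.93 (mt-Nd4l) to 21.0 (mt-Co3) CPM per kb. Of the other 7, mt-Co1, the catalytic subunit of cytochrome c oxidase, was highest at 11939 CPM per kb, mt-Nd4 of complex I was at 2866, and mt-Nd6, the protein gene of the light-strand transcript, was lowest at 381. In raw counts the 6 low genes lay between 56 and 883 reads in every library, and the 7 others between 6541 and 941401. The 2 sets therefore did not overlap in any library, although they come from the same precursor RNA apart from mt-Nd6. The split of the 13 genes into these sets was made after their values were seen.

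**Figure D1:**
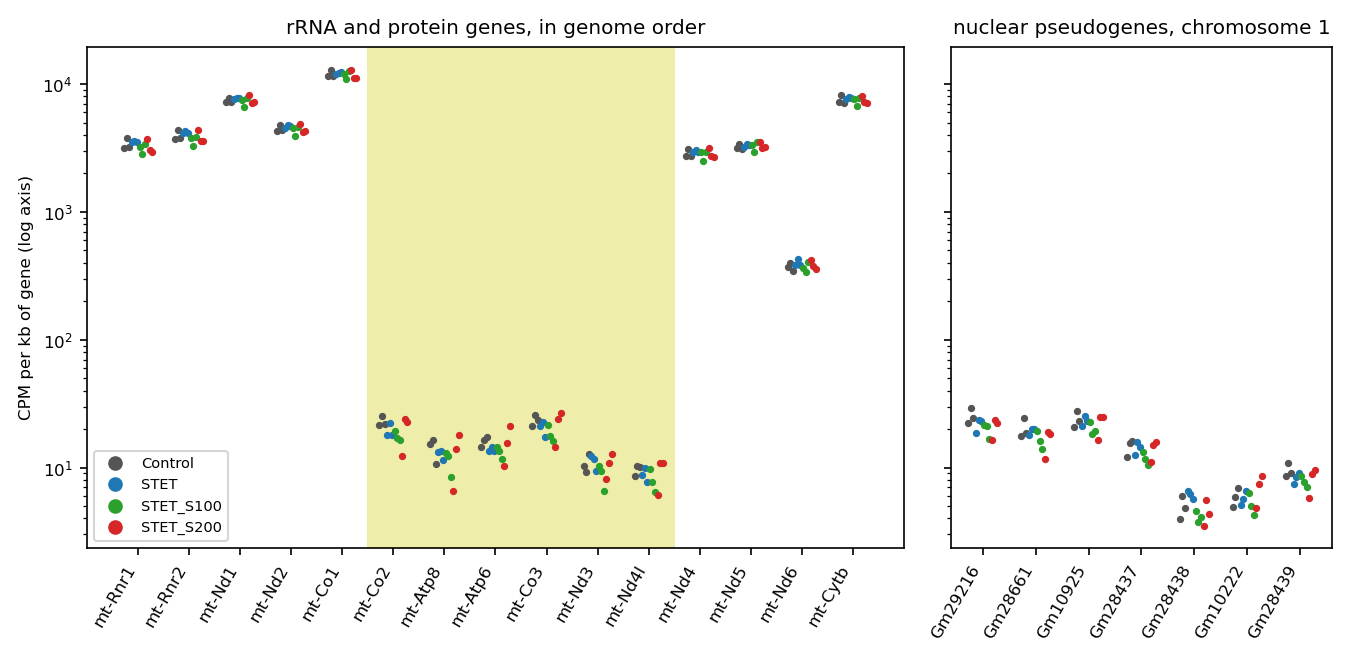
Level of each rRNA and protein gene (left, in genome order) and of the 7 pseudogenes on chromosome 1 (right), as CPM per kb of gene on a log axis; each point is 1 of the 12 libraries and colours are the 4 groups. The 6 genes in the shaded stretch sit near the level of the pseudogenes, while mt-Co1 averages 11939 CPM per kb.

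The step at both edges of this stretch was large in every library. Per kb, mt-Co1 was 468 to 1047 times mt-Co2, its neighbour among the protein genes (median 584). At the other edge, mt-Nd4 was 245 to 515 times mt-Nd4l, with which it shares a bicistronic messenger RNA (median 314). By contrast, mt-Co1 was 4.04 to 4.38 times mt-Nd4, and mt-Nd5 of complex I was 7.93 to 9.16 times mt-Nd6, which lies opposite to it in direction. The ratios between genes outside the stretch thus varied less between libraries than those across its edges. Of mt-Co1 31.3% and of mt-Nd4 63.6% also lie in the sequence copied on chromosome 1, which these ratios do not allow for.

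The low genes with a copy had read counts of the same order as that copy. The count of mt-Co2 was 0.903 to 1.27 times that of Gm28661, and that of mt-Atp6 was 0.580 to 0.852 times that of Gm10925. For mt-Co3 the ratio was 1.20 to 1.75, for mt-Nd4l 1.18 to 1.77, and for mt-Nd3, the one low gene whose copy differs by a base, 1.54 to 2.95. The 2 genes copied in part were far above their copies: mt-Co1 had 1393 to 2441 times the reads of Gm29216, and mt-Nd4 had 440 to 849 times those of Gm28439. Counts of the 7 pseudogenes ran from 51 to 773 per library. How reads that map equally well to both places were treated is not given in the sources used here, and the part of the nuclear copies in the low counts was not tested. The counts of mt-Co2, mt-Atp6, mt-Co3, mt-Nd3 and mt-Nd4l, and of their copies, are therefore uncertain. The same holds for mt-Atp8, whose last 43 bases lie in the copied part of mt-Atp6. It also holds for the copied parts of mt-Co1 and mt-Nd4, and the levels per kb of these 2 genes do not allow for it.

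Less similar copies were annotated as well. Gm13340 matches all of mt-Co1 at 97.6% and had 975 to 2444 reads, and Gm13341 matches mt-Co2 at 95.9% and had 305 to 813. Gm13339 matches 49.1% of mt-Nd2 at 96.7% and had 109 to 251 reads, and Gm4076 matches 52.3% of mt-Nd5 at 95.2% and had 35 to 74. For mt-Nd1, mt-Nd6, mt-Cytb and both rRNAs no other annotated transcript reached 95% identity over 60 bases, and the best match was 93.6% for mt-Nd6 and 92.9% for mt-Cytb.

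The low stretch cut across the respiratory complexes. It holds both genes of complex V (mt-Atp6 and mt-Atp8), 2 of the 3 genes of complex IV (mt-Co2 and mt-Co3) and 2 of the 7 genes of complex I (mt-Nd3 and mt-Nd4l), but not mt-Cytb, the cytochrome b of complex III. A level summed by complex would therefore rest on mt-Co1 for complex IV and on no gene outside the stretch for complex V.

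The 5 complex I genes outside the stretch were led by mt-Nd1, at 6941, 7506 and 6958 CPM in Control, 7345, 7478 and 7403 in STET and 7193, 6297 and 7444 in STET_S100. Its STET_S200 values were 7864, 6788 and 6905. All groups overlapped, with the highest library in STET_S200 and the lowest in STET_S100. For mt-Nd6, the values were 191, 207 and 179 CPM in Control, 199, 222 and 200 in STET and 189, 176 and 211 in STET_S100. The STET_S200 libraries had 220, 196 and 185, again with overlap throughout. The other 3, mt-Nd2, mt-Nd4 and mt-Nd5, averaged 4670, 3949 and 5977 CPM over the 12 libraries. The low pair of complex I averaged 3.58 CPM for mt-Nd3 and 2.65 CPM for mt-Nd4l.

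In complex III, mt-Cytb was at 8317, 9384 and 8203 CPM in Control, 8681, 8995 and 8979 in STET and 8707, 7710 and 8873 in STET_S100. Levels in STET_S200 were 9269, 8306 and 8128. No group stood apart from another. In complex IV, mt-Co1 was at 17730, 19985 and 17713 CPM in Control, 18580, 18951 and 19062 in STET and 18547, 16863 and 19455 in STET_S100. STET_S200 had 19793, 17291 and 17370. The 3 STET libraries were close together and lay inside the Control range.

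The copper-binding subunit gene mt-Co2 was at 14.7, 17.3 and 14.95 CPM in Control, 12.2, 15.3 and 12.3 in STET and 13.3, 11.6 and 11.2 in STET_S100. The values in STET_S200 were 8.37, 16.4 and 15.7. All 3 STET_S100 libraries were below all 3 Control libraries, as in 4.93% of all genes tested. STET_S200 held both the lowest library of mt-Co2 and 2 of its high ones. For mt-Atp6 the values were 9.81, 11.1 and 11.9 CPM in Control, 9.11, 9.91 and 9.18 in STET and 9.85, 9.24 and 7.89 in STET_S100. In STET_S200 they were 6.97, 10.6 and 14.4. Its STET_S200 libraries spanned the whole range of the other 9, and mt-Atp8, at 1.33 to 3.69 CPM over the 12 libraries, had its lowest and highest values in that group as well.

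Both rRNAs, the RNA core of the mitochondrial ribosome, were abundant although the libraries were selected for poly(A). The large-subunit rRNA mt-Rnr2 was at 5902, 6889 and 5993 CPM in Control, 6567, 6814 and 6571 in STET and 5998, 5203 and 6103 in STET_S100. Its STET_S200 values were 6864, 5702 and 5705. The small-subunit rRNA mt-Rnr1 was at 3005, 3633 and 3049 CPM in Control, 3366, 3455 and 3384 in STET and 3088, 2702 and 3260 in STET_S100. The STET_S200 libraries were at 3527, 2909 and 2807. In both, all 3 STET_S100 libraries were below all 3 STET libraries, as in 4.87% of all genes tested. Per kb, mt-Rnr2 averaged 3914 CPM and mt-Rnr1 3332 CPM, a ratio of 1.13 to 1.23 in single libraries, and both lay between mt-Nd4 and mt-Nd2.

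The rRNA level was also set against the summed CPM of the 7 protein genes outside the low stretch. The 2 rRNAs came to 18.9, 20.03 and 19.3% of that sum in Control, 20.1, 20.1 and 19.6% in STET, 18.4, 18.0 and 18.2% in STET_S100, and 19.6, 18.5 and 18.3% in STET_S200. All 3 STET_S100 values were below all Control and STET values and overlapped with STET_S200. This ratio was chosen after the values were seen and has no test and no share of all genes to set it against.

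The 22 tRNAs had few reads, and the 3 with the most are printed with their anticodons in capitals beside 1 of the 9 without a read. They are the proline tRNA mt-Tp (chrM:15356-15422, minus strand), the tryptophan tRNA mt-Tw (chrM:4950-5016, plus strand), the glutamine tRNA mt-Tq (chrM:3772-3842, minus strand) and the asparagine tRNA mt-Tn (chrM:5089-5159, minus strand).
mt-Tp: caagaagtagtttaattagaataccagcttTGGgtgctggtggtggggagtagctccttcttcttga
mt-Tw: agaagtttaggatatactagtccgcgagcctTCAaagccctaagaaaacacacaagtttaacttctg
mt-Tq: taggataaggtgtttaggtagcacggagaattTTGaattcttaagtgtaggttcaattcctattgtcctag
mt-Tn: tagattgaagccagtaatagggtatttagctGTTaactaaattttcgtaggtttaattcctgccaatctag
All 4 are shorter than the 150 base reads of these libraries.

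Over the 12 libraries mt-Tp had 9402 reads, mt-Tw 7040 and mt-Tq 4869, and the threonine, glutamate, alanine, serine and tyrosine tRNAs mt-Tt, mt-Te, mt-Ta, mt-Ts1 and mt-Ty had 1661, 1292, 932, 268 and 209. A further 5 had 1 to 16 reads in total (mt-Tm 16, mt-Ti 10, mt-Th 2, mt-Tg 1 and mt-Tc 1). The 9 others had none, which allows up to 3 reads, or 0.0567 to 0.0820 CPM in a single library, for counting error only. The tRNAs thus fell into 8 with reads in every library and 14 with next to none.

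The 8 detected tRNAs differed from the 14 others in position. Each of the 8 had at least 1 side on which no gene of the same strand lay within 150 bp, against 1 of the 14 others, mt-Tf at the start of the heavy-strand transcript. They included 6 of the 8 tRNAs of the light-strand transcript and 2 of the 14 of the heavy-strand transcript, mt-Tw and mt-Tt. The tRNAs on the low stretch of protein genes, mt-Tk, mt-Tg and mt-Tr, had 0, 1 and 0 reads. Beside it, between mt-Co1 and mt-Co2, lie mt-Td and the detected mt-Ts1. Like most low genes, mt-Ts1 was lowest in STET_S200 1 (0.19 CPM) and highest in STET_S200 3 (0.71 CPM). No annotated transcript matched these tRNAs. The chromosome 1 sequence between the pseudogenes was not read, so whether it copies them was not tested and the counts of mt-Ts1 are uncertain as well. The libraries were directional, but the strand setting of the counting is not given in the sources used here. Reads of light-strand genes and of the heavy-strand RNA opposite to them may therefore not be told apart, and whether position sets the counts was not tested.

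**Figure D2:**
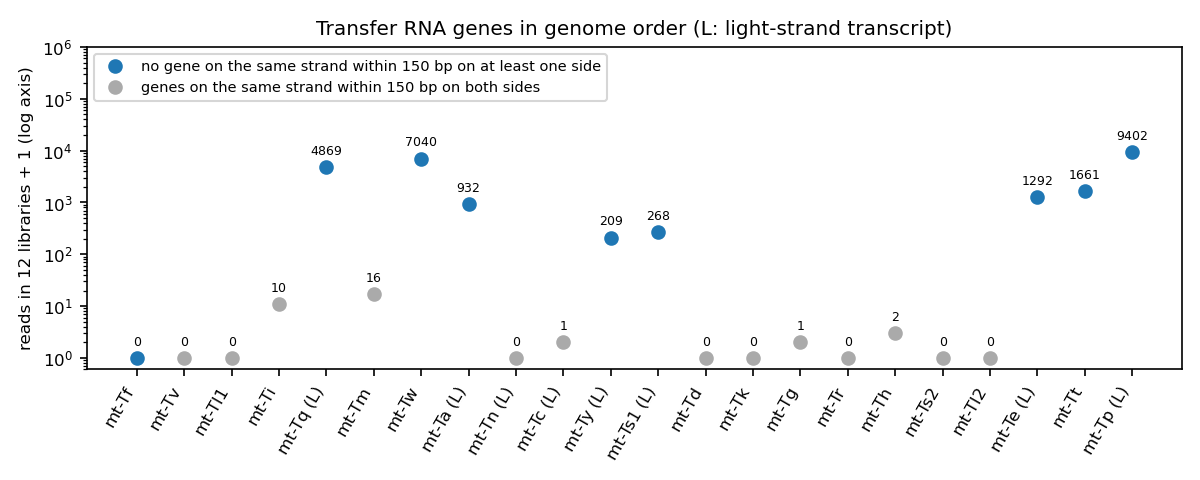
Reads of each tRNA gene summed over the 12 libraries, plus 1, on a log axis and in genome order; L marks light-strand transcripts, and the number above each point is the sum of reads. Blue points have a side free of same-strand genes for 150 bp, and all 8 tRNAs with more than 16 reads are blue.

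The share of all counts that was mitochondrial was 5.83 ± 0.34% in Control (SD, n = 3 for each group), 6.06 ± 0.10% in STET, 5.73 ± 0.40% in STET_S100 and 5.76 ± 0.43% of the STET_S200 counts. For the protein genes, the shares in the same order were 4.88 ± 0.26%, 5.05 ± 0.09%, 4.84 ± 0.34% and 4.85 ± 0.33%. Those of the rRNAs were 0.946 ± 0.079%, 1.01 ± 0.02%, 0.881 ± 0.068% and 0.912 ± 0.097%. The tRNAs took 0.00482% of the counts over all libraries. Single libraries ran from 5.27% in STET_S100 2 to 6.26% in STET_S200 1. The group means lay closer together than the 3 libraries of STET_S100 (5.27 to 6.01%). In these bulk samples, a smaller share of cells rich in mitochondria and less mitochondrial RNA per cell cannot be told apart. Averaged over all libraries, protein genes outside the low stretch held 4.90% of the counts and those in it 0.00489%. The protein share was thus almost wholly that of the genes outside the stretch. The counts of genes with nuclear copies are uncertain, as given above, so the protein and mitochondrial shares are uncertain as well.

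**Figure D3:**
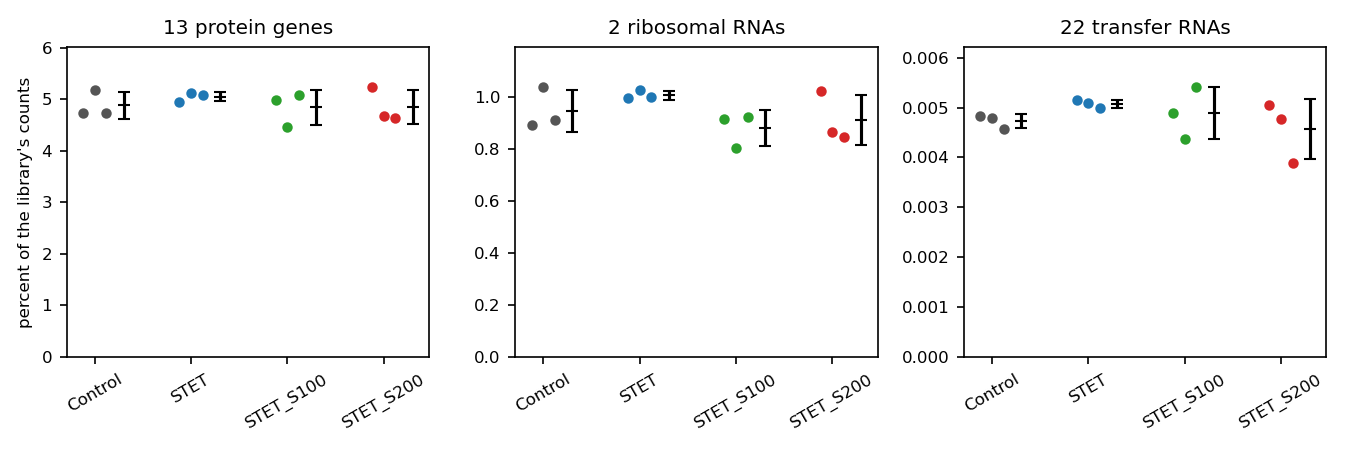
Percent of each library's counts in the 13 protein genes, the 2 rRNAs and the 22 tRNAs; points are the 3 libraries of a group, and the black mark beside them is the mean with its SD. The groups overlap except for the rRNAs of STET and STET_S100 and the tRNAs of STET and Control, and STET has the smallest spread in each panel. Genes of the low stretch, with uncertain counts, add a mean of only 0.00489% to the protein panel.

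Of the 37 genes, 23 passed the filter on low counts and were tested with edgeR's quasi-likelihood test, namely all 13 protein genes, both rRNAs and 8 tRNAs. In each of the 7 comparisons 0 of the 23 passed an adjusted p of 0.05, against 0% of the 19492 genes tested. DESeq2 and limma-voom also passed 0 of them in every comparison. Of all genes, limma-voom passed 0 in each comparison, and DESeq2 passed from 1 (STET against Control) to 16 (STET_S200 against STET). Counts of unadjusted p by these 2 tools are given below without a share of all genes, so they cannot be set against one. The SE of a log2 fold change was 0.06 to 0.08 for protein genes outside the low stretch and 0.19 to 0.30 for those in it, so the former were measured with the smaller error. Single libraries were high or low in many of these genes at once, as given further below. The numbers of genes above or below 0 are therefore not numbers of separate observations.

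STET against Control addresses tetanization alone. By edgeR the unadjusted p was under 0.05 for 0 of 23 members, against 3.50% of all genes, and for 0 by DESeq2 and by limma-voom. The median log2 fold change was 0.05 for the 7 protein genes outside the low stretch, all 7 above 0 (49.9% of all genes were), and −0.17 for the 6 in it, 5 of them below 0 (50.1% of all genes were). Over all genes it was −0.00019. For the genes followed in every comparison the log2 fold changes were 0.03 for mt-Co1, 0.04 for mt-Cytb, −0.22 for mt-Atp6, −0.14 for mt-Atp8, −0.15 for mt-Nd4l, 0.08 for mt-Rnr1 and 0.09 for mt-Rnr2. The smallest p of a protein gene was that of mt-Nd6 (0.11 ± 0.08 SE, unadjusted p = 0.221 by edgeR), and the largest log2 fold change was that of mt-Co2 (−0.24 ± 0.22). Among the tRNAs, mt-Tp (0.16 ± 0.10) was higher in all 3 STET libraries than in all 3 Control libraries, as were 4.69% of all genes, and 0 members were lower in all 3 (4.20% of all genes). The values of mt-Tw and mt-Tq were 0.05 and 0.06. With 1 library left out at a time, the 7-gene median ran from 0.02 (without Control 3) to 0.11 (without Control 2) and the 6-gene median from −0.25 (without STET 2) to −0.08 (without STET 3).

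In these 2 groups the deviations of libraries with equal numbers correlated at 0.127 to 0.231. It was the only pairing of groups in which all 3 were over 0.1, and was picked for that. Over all pairings of groups, deviations correlated over 0.1 in 7 of 18 same-numbered pairs and in 10 of 36 pairs with different numbers. Whether equal numbers mark shared mice is not stated. A fit of Control and STET alone, chosen after the data were seen, paired libraries by number. It passed 0 of 23 members, against 0.0640% of the 18758 genes it tested. By edgeR the unadjusted p was under 0.05 for 6 members, against 4.56% of the genes and against 0 members without the pairing. The 3 of them in the low stretch were mt-Co2 (−0.24 ± 0.07, unadjusted p = 0.00534, edgeR adjusted p = 0.828), mt-Atp6 (−0.21 ± 0.09) and mt-Co3 (−0.20 ± 0.08). The other 3 were above 0, namely mt-Nd6 (0.11 ± 0.04, unadjusted p = 0.0148, edgeR adjusted p = 0.997), mt-Rnr2 (0.09 ± 0.04) and mt-Tp (0.16 ± 0.07).

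STET_S100 against Control addresses tetanization with amygdala stimulation at 100 Hz. The unadjusted edgeR p was under 0.05 for 1 of 23 members, mt-Ty, against 5.16% of all genes. By DESeq2 it was so for 0 and by limma-voom for 1. That tRNA had 5 to 19 reads in Control and 18 to 27 in STET_S100, a log2 fold change of 0.80 ± 0.38 (SE, unadjusted p = 0.0498, edgeR adjusted p = 0.902). It was higher in all 3 STET_S100 libraries, as were 5.19% of all genes. Lower in all 3 were mt-Ts1 (−0.62 ± 0.36) and mt-Co2 (−0.38 ± 0.22, edgeR adjusted p = 0.902), against 4.93% of all genes. All 6 genes of the low stretch were below 0 (49.2% of all genes were) with a median of −0.31, and the 7 outside it had a median of −0.03 with 6 below 0, beside 0.0019 over all genes. The log2 fold changes were −0.01 for mt-Co1, −0.03 for mt-Cytb, −0.28 for mt-Atp6, −0.33 for mt-Atp8, −0.28 for mt-Nd4l, −0.0041 for mt-Nd6, −0.10 for mt-Rnr1, −0.12 for mt-Rnr2, 0.12 for mt-Tp, −0.02 for mt-Tw and 0.0012 for mt-Tq. The median of the 7 outside genes turned to 0.03 without Control 2 and to 0.04 without STET_S100 2, and that of the 6 ran from −0.44 (without STET_S100 1) to −0.18 (without STET_S100 3).

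STET_S200 against Control had 0 of 23 members with an unadjusted edgeR p under 0.05, against 5.92% of all genes, and 0 by DESeq2 and by limma-voom. The medians were −0.0031 for the 7 protein genes outside the low stretch and −0.08 for the 6 in it, all of them below 0 (49.4% of all genes were), beside 0.0017 over all genes. The 6-gene median turned to 0.16 without STET_S200 1 and was −0.30 without STET_S200 3. That of the 7 was 0.05 without Control 2, 0.03 without STET_S200 2, 0.04 without STET_S200 3 and −0.07 without STET_S200 1. The tryptophan tRNA mt-Tw was at 13.5, 13.4 and 13.9 CPM in Control and at 13.3, 11.97 and 10.2 in STET_S200, without overlap (−0.20 ± 0.10). Such a difference, with all 3 STET_S200 libraries lower, was seen for 5.28% of all genes, and the reverse for 0 members and 5.73% of all genes. The protein gene with the smallest p and the largest log2 fold change was mt-Co2 (−0.22 ± 0.22, unadjusted p = 0.354 by edgeR). In the same genes the log2 fold changes were −0.03 for mt-Co1, −0.01 for mt-Cytb, −0.04 for mt-Atp6, −0.14 for mt-Atp8, −0.05 for mt-Nd4l, 0.06 for mt-Nd6, −0.07 for mt-Rnr1, −0.04 for mt-Rnr2, 0.01 for mt-Tp and 0.05 for mt-Tq.

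**Figure D4:**
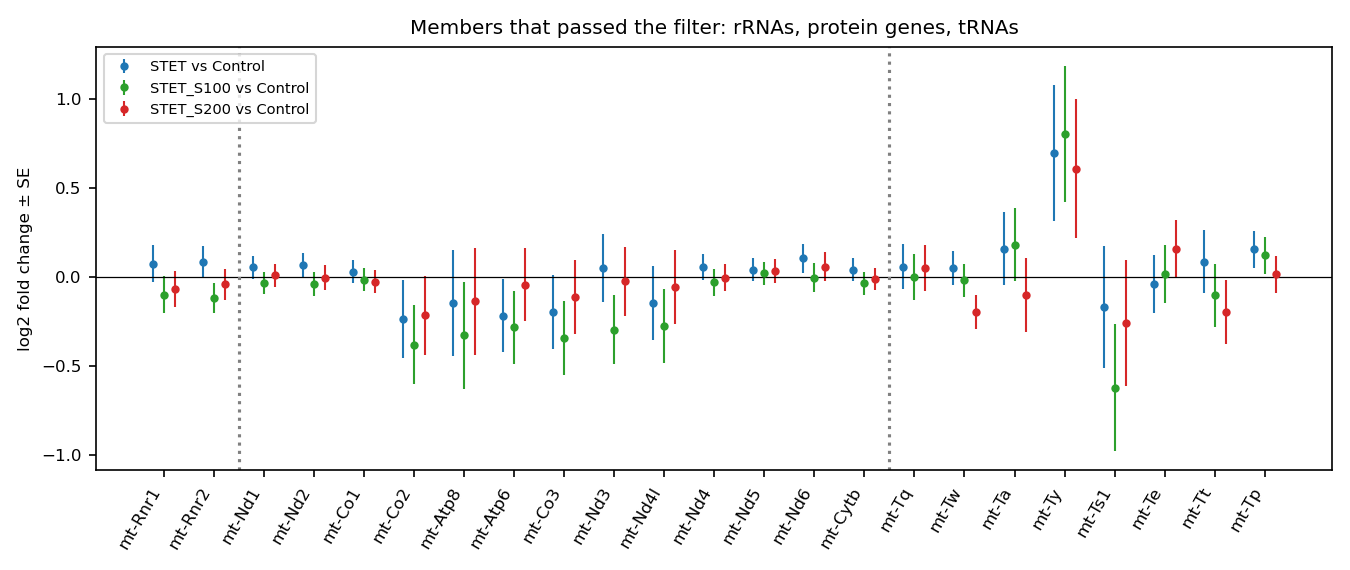
Log2 fold change against Control, with its SE, for the 23 members that passed the filter, in the order rRNAs, protein genes and tRNAs (dotted lines part them); colours are the 3 stimulated groups. The 7 protein genes outside the low stretch lie between −0.04 and 0.11, and mt-Ty and mt-Ts1, with the fewest reads, have the widest error bars.

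STET_S100 against STET addresses what amygdala stimulation at 100 Hz adds. All 13 protein genes were below 0 (48.1% of all genes were) and 0 were above it (51.9%), with a median of −0.09 for the 7 outside the low stretch and −0.14 for the 6 in it, beside 0.0041 over all genes. For 1 of 23 members, mt-Rnr2 (−0.21 ± 0.09, unadjusted p = 0.0367, edgeR adjusted p = 1.00), the unadjusted p was under 0.05, against 3.16% of all genes. DESeq2 and limma-voom each had 1 such member. Lower in all 3 STET_S100 libraries than in all 3 STET libraries were mt-Rnr1 (−0.17 ± 0.10), mt-Rnr2 and mt-Ts1 (−0.45 ± 0.36), as were 4.87% of all genes, and higher in all 3 were 0 members and 4.73% of all genes. With no filter on low counts, 1 of 28 members passed, mt-Rnr2 at −0.21 with an edgeR adjusted p of 0.0413. It was the sole call among 146 alternative counts over the 7 comparisons. The log2 fold change was that of the main fit, where mt-Rnr2 did not pass. The share of all genes that passed without the filter is not given here, so this call cannot be set against it. Scaled to the mitochondrial total, mt-Rnr2 was at −0.12 (edgeR adjusted p = 0.831) and mt-Rnr1 at −0.09. Choroid plexus markers differed most within STET_S100. A fit with a choroid plexus score as covariate passed 0 members, as the main fit did, so this count says nothing about choroid plexus content. With 1 library left out at a time, the 7-gene median ran from −0.13 (without STET_S100 3) to −0.02 (without STET_S100 2). The 6-gene median ran from −0.28 (without STET_S100 1) to −0.04 (without STET_S100 3), and was −0.05 without STET 2 and −0.23 without STET 3.

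In the same comparison the smallest p and the largest log2 fold change of a protein gene were those of mt-Nd3 (−0.35 ± 0.19, unadjusted p = 0.0900 by edgeR), at 4.31, 4.03 and 3.25 CPM in STET and 3.57, 3.28 and 2.27 in STET_S100. These groups overlapped. The log2 fold changes were −0.04 for mt-Co1, −0.08 for mt-Cytb, −0.06 for mt-Atp6, −0.18 for mt-Atp8, −0.13 for mt-Nd4l, −0.11 for mt-Nd6, −0.03 for mt-Tp, −0.07 for mt-Tw and −0.06 for mt-Tq.

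STET_S200 against STET had 1 member with an unadjusted edgeR p under 0.05, mt-Tw (−0.24 ± 0.10, unadjusted p = 0.0201, edgeR adjusted p = 0.938), against 4.56% of all genes, and 1 by DESeq2 and by limma-voom. It was lower in all 3 STET_S200 libraries, as were 5.76% of all genes, and 0 members were higher in all 3 (6.22% of all genes). All 7 protein genes outside the low stretch were below 0 (49.0% of all genes were), with a median of −0.05. The 6 in it had a median of 0.05, with 5 above 0 (51.0% of all genes were), which became 0.31 without STET_S200 1 and 0.15 without STET 2. It turned to −0.02 without STET 3, −0.05 without STET_S200 2 and −0.10 without STET_S200 3. The 7-gene median ran from −0.12 (without STET_S200 1) to −0.02 (without STET_S200 3). The protein gene with the smallest p was mt-Nd2 (−0.07 ± 0.07) and the largest log2 fold change was that of mt-Atp6 (0.17 ± 0.20). Other log2 fold changes were −0.06 for mt-Co1, −0.05 for mt-Cytb, 0.0075 for mt-Atp8, 0.09 for mt-Nd4l, −0.05 for mt-Nd6, −0.14 for mt-Rnr1, −0.13 for mt-Rnr2, −0.14 for mt-Tp and −0.0061 for mt-Tq.

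STET_S200 against STET_S100 compares the stimulation rates. Here 0 of 23 members had an unadjusted p under 0.05 by edgeR, DESeq2 or limma-voom, against 5.20% of all genes by edgeR, and 0 members were higher or lower in all 3 STET_S200 libraries (4.57% and 4.77% of all genes). The medians were 0.03 outside the low stretch and 0.22 in it, with 12 of the 13 protein genes above 0 (50.7% of all genes were) and mt-Co1 below it (49.3%). The 7-gene median turned to −0.04 both without STET_S100 2 and without STET_S200 1. The 6-gene median ran from 0.05 (without STET_S200 3) to 0.45 (without STET_S200 1). The protein gene with the smallest p and the largest value was mt-Nd3 (0.27 ± 0.19). The log2 fold changes were −0.01 for mt-Co1, 0.02 for mt-Cytb, 0.24 for mt-Atp6, 0.19 for mt-Atp8, 0.22 for mt-Nd4l, 0.06 for mt-Nd6, 0.03 for mt-Rnr1, 0.08 for mt-Rnr2, −0.11 for mt-Tp, −0.18 for mt-Tw and 0.05 for mt-Tq.

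The 3 stimulated groups were also averaged and set against Control, a comparison that shares its libraries with those above. It had 1 member with an unadjusted edgeR p under 0.05, mt-Ty (0.70 ± 0.32, edgeR adjusted p = 0.899), against 5.47% of all genes. DESeq2 had 0 such members and limma-voom 1. The medians were 0.0082 for the 7 protein genes outside the low stretch and −0.19 for the 6 in it, which were all below 0 (50.0% of all genes were). With 1 library left out at a time, the former ran from −0.02 (without Control 1) to 0.06 (without Control 2) and the latter from −0.27 (without STET_S200 3) to −0.10 (without STET_S200 1). In 0 members were all 9 stimulated libraries higher or lower than Control (0.549% and 0.441% of all genes). The gene with the smallest p and the largest value among the protein genes was mt-Co2 (−0.28 ± 0.18). The log2 fold changes were −0.0035 for mt-Co1, −0.0016 for mt-Cytb, −0.18 for mt-Atp6, −0.20 for mt-Atp8, −0.16 for mt-Nd4l, 0.05 for mt-Nd6, −0.03 for mt-Rnr1, −0.02 for mt-Rnr2, 0.10 for mt-Tp, −0.05 for mt-Tw and 0.04 for mt-Tq.

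Single libraries stood high or low in many mitochondrial genes at once, and the 2 sets of protein genes did not do so alike. STET_S100 2 was the lowest of the 12 libraries in 7 of the 7 protein genes outside the low stretch and in both rRNAs. It also had the highest level of the choroid plexus gene Ttr, 2798 CPM. STET 2, with 2243 CPM of Ttr, had 1.04 times the mean summed CPM of the 7 genes. STET_S200 2, with 1.73 CPM of Ttr, had 0.948 times that mean. A relation to choroid plexus content was not tested. STET_S200 1 was among the 2 highest libraries in 7 of those 7 genes, and the lowest in 5 of the 6 genes of the low stretch and in 5 of the 7 nuclear copies. STET_S200 3 was the highest in 5 of the 6 low genes, and STET_S100 3 was among the 2 lowest in 6 of the 6. The summed CPM of the 7 genes was 747 times that of the 6 low genes in STET_S200 3 and 1618 times in STET_S200 1. Over the 12 libraries the coefficient of variation was 5.64 to 7.56% for the 7 genes, 18.0 to 25.4% for the 6 low genes and 14.3 to 21.3% for the nuclear copies.

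**Figure D5:**
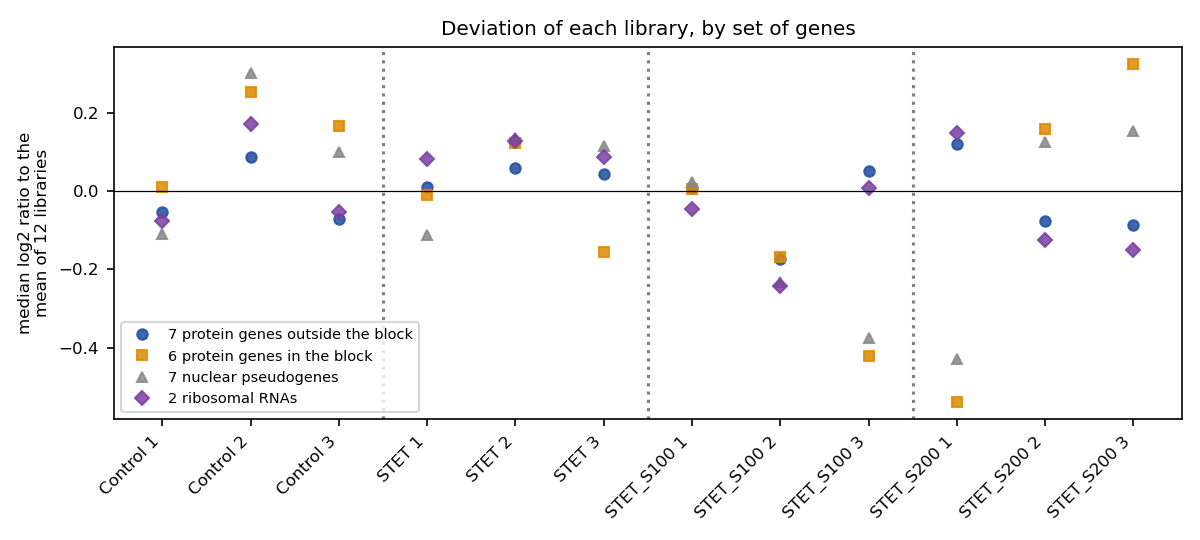
Median log2 ratio of each library to the mean of the 12 libraries, for the 7 protein genes outside the low stretch, the 6 in it, the 7 nuclear pseudogenes and the 2 rRNAs; dotted lines part the groups. In STET_S200 1 the 7 genes (0.12) and the rRNAs (0.15) are above 0, while the 6 low genes (−0.54) and the pseudogenes (−0.43) are below it.

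The nuclear genes that work with the mitochondrial genome were taken from lists of known factors. In each list and comparison 0 genes passed by edgeR. For STET against Control, 65 of the 77 tested nuclear subunits of the respiratory complexes were above 0, with a median of 0.06, beside 49.9% of all genes. For STET_S100 against STET 64 of 77 were below 0, with a median of −0.06, and for STET_S200 against STET 52 of 77 were, with a median of −0.04, beside 48.1% and 49.0% of all genes. By edgeR the unadjusted p was under 0.05 for 10 of the 77 in STET against Control (3.50% of all genes). It was so for 18 in STET_S100 against STET (3.16%) and 16 in STET_S200 against STET (4.56%). In the other comparisons 1 to 3 of 77 were, against 5.16% to 5.92% of all genes. These 3 comparisons share the STET libraries, and genes of a list are not separate observations. The smallest p in STET against Control were those of Uqcrq (0.16 ± 0.04) and Uqcrb (0.14 ± 0.04) of complex III and of Atp5mpl (0.17 ± 0.05) of complex V. In STET_S100 against Control the smallest was that of Ndufb9 of complex I (−0.35 ± 0.07, unadjusted p = 0.00010 by edgeR). The median of the 7 mitochondrial protein genes outside the low stretch was 0.05 in STET against Control and −0.09 in STET_S100 against STET. Both comparisons share the STET libraries.

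Genes of mitochondrial transcription and replication had 9 of 16 members above 0 in STET against Control, 6 of 16 in STET_S100 against Control and 6 of 16 in STET_S200 against Control, beside 49.9%, 50.8% and 50.6% of all genes. The RNA polymerase gene Polrmt was at −0.06, −0.05 and −0.04, and Tfam, whose product packages mitochondrial DNA and starts its transcription, at 0.04, 0.03 and 0.07 in these comparisons. The helicase gene Twnk was at 0.15, 0.20 and 0.20 (unadjusted p = 0.0769, 0.0237 and 0.0228 by edgeR), and Mterf1a, of the mitochondrial termination factor family, at −0.28 ± 0.23 in STET against Control (unadjusted p = 0.234 by edgeR). Of the genes that process and stabilise mitochondrial RNA, 18 of 19 were tested. Lrpprc, which protects mitochondrial messenger RNAs, was at −0.01, 0.0071 and 0.01, and its partner Slirp at 0.10, −0.10 and −0.04. Slirp was at −0.20 ± 0.07 in STET_S100 against STET (unadjusted p = 0.0107, adjusted p = 0.9999 by edgeR). In that comparison Lrpprc was at 0.02, and 10 of the 18 genes were above 0, beside 51.9% of all genes. Mitochondrial ribosomal protein genes were above 0 in 55 of 77, 45 of 77 and 51 of 77 cases against Control, with medians of 0.03, 0.01 and 0.03. In STET_S100 against STET 22 of 77 were above 0 and in STET_S200 against STET 32 of 77, beside 51.9% and 51.0% of all genes. In STET_S200 against STET_S100 50 of 77 were, beside 50.7%. Of the 17 mitochondrial tRNA synthetase genes 6, 3 and 7 were above 0, and of the 9 regulators of mitochondrial biogenesis 6, 8 and 7 were.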

How the data were processed

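The authors deposited 1 table with Ensembl gene IDs in rows and the read counts of the 12 libraries in columns. These raw counts were used as deposited. Per the submitters' processing notes, the tools were HTSeq 0.11.2, STAR 2.7.1a, Trimmomatic 0.39, limma and R 4.0.2. Their roles and settings, the genome build, the strand setting and the treatment of reads that map to several places are not given in the sources here, and the last of these can lower the counts of genes with identical copies. Read counts are not counts of molecules, so floors cover counting error only.

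Gene lengths, positions and sequences came from the GENCODE M21 annotation and transcripts of GRCm38, by Ensembl ID. The 37 transcripts were compared with 141730 others by blastn 2.17.0 (word size 11, E-value limit 1e-10), and matches of at least 60 bases and 95% identity were kept as near-identical copies. Counts were scaled with TMM factors (trimmed mean of M values), filtered by filterByExpr (minimum count 10, minimum total 15) and fitted with edgeR 4.0.16 in R 4.3.3, with robust dispersion, 1 coefficient per group and all 12 libraries. P-values were adjusted by Benjamini-Hochberg over 19492 genes in each of 7 comparisons, with a threshold of 0.05. Within groups, the chi-square between 2 libraries was 4.79 to 19.5 per degree of freedom, so none was a repeat of another. Deviations from the group means of same-numbered libraries correlated at 0.127 to 0.231 between Control and STET, in all 3 pairs over 0.1. These groups were therefore also fitted as pairs. Different numbers gave −0.19 to −0.0088. Deviations from a group mean sum to 0, so positive values for equal numbers push those for different numbers below 0. The latter are thus no separate sign of pairing. In the other 5 pairings of groups at most 2 of 3 were over 0.1 (−0.29 to 0.33). The fit was tested on simulated counts. The alternatives were other scalings, filters and dispersions, DESeq2 1.42.0, limma-voom (limma 3.58.1), the compared groups alone, a threshold of 0.1, a replicate block, a choroid plexus score as covariate, the 7 libraries with Fabp4 under 1 CPM, each library left out, and nuclear counts as the denominator of shares.

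The members, lists and tests were chosen with earlier results of these data known. The named genes were, in each comparison, the protein gene with the smallest p and that with the largest log2 fold change, mt-Nd6, mt-Atp8, mt-Nd4l, mt-Co1, mt-Cytb, mt-Atp6, both rRNAs and the 3 tRNAs with the most reads. Polrmt, Tfam, Lrpprc, Slirp and up to 3 genes with the smallest p per list were added. Members named for an unadjusted p or for groups without overlap, and the split of the protein genes at mt-Co2 and mt-Nd4l, were chosen after their values were seen.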

Additional observations from a re-analysis of the deposited data

How the results depend on the processing

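The count of members past the threshold was 0 in all but 1 of 146 alternatives, and was 1 without a filter in STET_S100 against STET (mt-Rnr2). In the 7 libraries with Fabp4 under 1 CPM, where STET_S200 is 1 library, the STET_S200 medians (log2) against Control became 0.065 for the 13 protein genes, 0.11 for the 7 outside the low stretch and −0.66 for the 6 in it. Against STET they became 0.055, 0.067 and −0.60, and against STET_S100 0.19 (7 genes) and −0.26 (6 genes). With the choroid covariate the 6-gene median of STET_S200 against STET was 0.34. As a percent of nuclear counts, protein genes were 5.18 in Control and 5.38 in STET, rRNAs 1.07 in STET, and tRNAs 0.00503 in Control and 0.00540 in STET. Without each replicate, the 13-gene medians ran from 0.0054 to 0.09 (STET against Control), −0.09 to 0.03 (STET_S100 against Control), −0.05 to 0.03 (STET_S200 against Control), −0.13 to −0.05 (STET_S100 against STET), −0.06 to 0.0058 (STET_S200 against STET), −0.01 to 0.09 (STET_S200 against STET_S100) and −0.03 to 0.05 (mean against Control). With the replicate block over all 12 libraries, and with Control and STET alone, the 13-gene median of STET against Control was 0.04, and the pairing changed no call: 0 members passed in each comparison. With 3 libraries a group, and few reads in the low stretch and the tRNAs, small differences were not detectable.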

Other observations

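The stop codons of the protein genes differ in how they end in the reference. Of the 13 genes, mt-Co3, mt-Nd4 and mt-Cytb end with a single T beyond whole codons, which the poly(A) tail completes. As annotated, mt-Nd1 and mt-Nd2 end with TAG and the 8 others with TAA. The annotated ends of mt-Nd1 and mt-Nd2 overlap the tRNA gene that follows, and that of mt-Atp6 overlaps mt-Co3. Whether their messenger RNAs hold the whole stop codon was not examined. The last 30 bases of mt-Co1 (chrM:6843-6872, plus strand) and mt-Cytb (chrM:15259-15288, plus strand) show a whole stop codon and a single T, with the stop codon or its first base in capitals.
mt-Co1: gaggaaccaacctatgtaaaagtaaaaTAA
mt-Cytb: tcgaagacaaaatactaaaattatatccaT
Among genes with a single T, mt-Cytb averaged 7543 and mt-Nd4 2866 CPM per kb, and mt-Co3, in the stretch copied on chromosome 1, averaged 21.0. The mean levels of genes with a single T thus lay in both sets of protein genes.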
